A study of Mus musculus with 14 samples.

Results

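Type I interferon-stimulated genes were followed through T cells sorted from mouse tumours after treatment with anti-PD-L1 or isotype antibody. The set was a list of 37 genes that type I interferon is known to induce, and every library with a raw count was used. The genes were chosen by name, but with earlier results of these data known. All 37 were among the 25124 genes of the count table, so none was unmeasured, and all 37 passed the low-count filter, which left 13434 genes for testing. The filter looked at counts over all 6 groups, so passing it says nothing about a difference between groups.

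Type I interferons are secreted antiviral proteins that bind a receptor made of Ifnar1 and Ifnar2. The receptor acts through the kinases Jak1 and Tyk2 to assemble a complex that contains Stat2 and Irf9, enters the nucleus and binds interferon-stimulated response elements, short sequences rich in GAAA. The induced genes encode sensors of viral nucleic acid, proteins that block viral RNA and particle release, ubiquitin-like modifiers, and feedback regulators such as Usp18. In T cells the same program is known to be switched on by interferon from dendritic cells and macrophages in inflamed tissue, tumours included.

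The cells came from female C57BL/6 mice aged 8 to 12 weeks, all labelled with the genotype GATIR Foxp3Cre-rfp Gata3Cre-yfp, in which a red fluorescent protein reports expression of Foxp3, the transcription factor that defines regulatory T cells (Tregs). All mice carried subcutaneous AE17-OVA tumours, made from a mouse mesothelioma line that expresses ovalbumin. They received 200 µg of anti-PD-L1 (clone MIH5) or isotype antibody (clone 2A3) intraperitoneally on day 10, with tumour collection on day 13. PD-L1 binds PD-1, an inhibitory receptor of T cells. Flow sorting by CD4, CD25, PD-1 and the red reporter separated Tregs with surface PD-1, Tregs without it and the remaining CD4 T cells, whose RNA was made into Smart-seq2 libraries, which amplify full-length cDNA from few cells without molecular identifiers. PD-1+ Tregs had 3 anti-PD-L1 and 2 isotype libraries, PD-1- Tregs 2 and 2, and CD4 T cells 3 and 2. The series calls them biological replicates, but the sources used here do not say whether each came from 1 animal or a pool, so the p-values reflect how far these libraries spread. The sort fixes the populations, and an effect of the antibody on a population here means an effect on the cells that fell in its gate at day 13.

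The 14 libraries held 10638848 to 15030804 counts. Tregs yielded fewer genes than CD4 T cells, with no read for 18.2% to 29.7% of tested genes per PD-1+ Treg library, 35.9% to 41.7% per PD-1- Treg library and 2.2% to 13.0% per CD4 library. The markers of the sort were partly met: Il2ra, which encodes CD25, was higher in all 9 Treg libraries than in all 5 CD4 libraries, Pdcd1, which encodes PD-1, was higher in all 5 PD-1+ than in all 4 PD-1- libraries, and Foxp3 overlapped between PD-1+ Tregs and CD4 T cells. Genes of macrophages and monocytes summed to 4511 to 8180.35 CPM (counts scaled to 1000000 per library) in PD-1+ Tregs, 559 to 1083 CPM in PD-1- Tregs, where C1qa and Fcgr1 had no read in any library, and 3019.8 to 7595 CPM in CD4 T cells. In 3 libraries, all from mice treated with anti-PD-L1 and all numbered 3 in the submitters' bracketed sample names, Y-linked genes summed to 204 to 267 CPM, against at most 0.0872 CPM in the other 11, although the labels give female mice. They were PD-1+ Treg replicate 3, PD-1- Treg replicate 2 and CD4 replicate 3. Fits without them leave 1 treated PD-1- library, so the spread of that group then comes from the other groups. Bulk RNA cannot tell fewer expressing cells from less RNA per cell.

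Before the levels, the sequences in front of these genes show what links the set and what does not. RefSeq promoter windows on GRCm38.p6, the assembly of mm10, were found for 27 of the 37 genes. The search motif was GAAA, then NN (any bases), then GAAA, the core of the interferon-stimulated response element, on both strands within 250 bases before to 50 bases after the annotated start. It was present in 14 of 27 (51.9%), against 1079 of 27025 genes (3.99%). A shorter form without the final A was in 16 of 27 (59.3%) against 9.76% of all genes, and a longer form with CT added at its end in 7 of 27 (25.9%) against 0.303%. The shorter form contains every match of the others, so these 3 shares overlap. The windows here run 160 bases up to the base before an annotated transcript start, 5′ to 3′ on the gene's strand, with matches on either strand in capitals. The 27 genes had 34 windows, and the first listed is printed. For Ifit3 the printed window lies inside the annotated gene span, and those of Oasl2 and Sp100 run into it. Isg15, Ifit1, Ifit3, Bst2 and Rsad2 are shown as widely used response genes with matches, and Oasl2 and Sp100 because they are the members that later passed a test.
Isg15, chr4:156200819-156200978, minus strand: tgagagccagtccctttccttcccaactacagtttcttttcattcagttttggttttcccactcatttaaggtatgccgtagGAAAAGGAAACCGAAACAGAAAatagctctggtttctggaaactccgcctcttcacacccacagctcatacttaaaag
Ifit1, chr19:34640729-34640888, plus strand: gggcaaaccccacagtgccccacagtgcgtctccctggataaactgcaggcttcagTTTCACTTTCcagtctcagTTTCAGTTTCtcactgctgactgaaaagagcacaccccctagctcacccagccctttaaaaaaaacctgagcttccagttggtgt
Ifit3, chr19:34583369-34583528, plus strand: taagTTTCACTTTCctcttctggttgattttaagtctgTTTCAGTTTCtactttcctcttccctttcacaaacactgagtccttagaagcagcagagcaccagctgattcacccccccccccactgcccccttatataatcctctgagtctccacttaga
Bst2, chr8:71537473-71537632, minus strand: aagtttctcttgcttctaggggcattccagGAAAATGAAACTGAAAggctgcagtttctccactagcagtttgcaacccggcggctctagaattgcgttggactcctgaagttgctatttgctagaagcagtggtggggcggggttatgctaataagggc
Rsad2, chr12:26456453-26456612, minus strand: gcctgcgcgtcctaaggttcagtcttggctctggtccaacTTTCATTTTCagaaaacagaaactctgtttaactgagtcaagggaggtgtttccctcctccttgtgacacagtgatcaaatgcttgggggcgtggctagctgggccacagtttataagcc
Oasl2, chr5:114896774-114896933, plus strand: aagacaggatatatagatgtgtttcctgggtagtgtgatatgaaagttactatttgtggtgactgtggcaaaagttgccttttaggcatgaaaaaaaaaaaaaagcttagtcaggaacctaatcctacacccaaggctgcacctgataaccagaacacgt
Sp100, chr1:85649828-85649987, plus strand: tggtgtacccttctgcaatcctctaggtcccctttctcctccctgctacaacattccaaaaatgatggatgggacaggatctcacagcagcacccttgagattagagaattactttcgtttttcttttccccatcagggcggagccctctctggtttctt
In Isg15 the matches overlapped in one run, and in Ifit1 and Ifit3 a pair of opposite-strand copies stood apart. Neither Oasl2 nor Sp100 held the letters in this window, which says only that they are absent there. Rtp4, Zbp1, Dhx58, Usp18, Parp14, Mx1, Oas2, Ifi204, Mx2 and Parp9 had no entry.

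**Figure D1:**
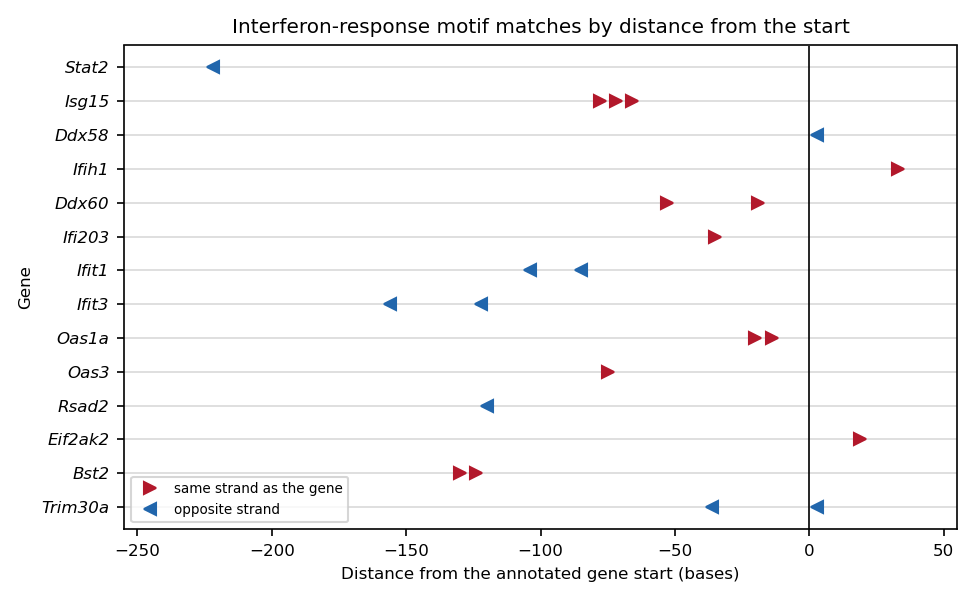
Position of each match to the interferon-response motif in bases from the annotated transcript start of its promoter window (horizontal axis, negative before the start), for the 14 genes with a match. Each triangle is 1 match; right-pointing red triangles lie on the gene's strand and left-pointing blue triangles on the opposite strand, and most lie within 160 bases before the start.

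The genes are spread over the genome with a few clusters of related copies. Oasl2, Oasl1, Oas2, Oas3 and Oas1a lie on chromosome 5, Ifit1, Ifit2 and Ifit3 on chromosome 19, the neighbours Rsad2 and Cmpk2 on chromosome 12, and Mx1, Mx2, Parp9, Parp14 and Rtp4 on chromosome 16. The span of 10 members overlaps another annotated gene, and Ifit3, Oas1a, Trim30a, Ifi203, Ifi204, Oasl1 and Oasl2 have close relatives. The sources used here give neither the annotation nor the strand setting of the counting, so the split of reads between such genes is uncertain.

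Per transcript length the set covered a wide range of levels. In the authors' RPKM (reads scaled by gene length and library depth), averaged over the 14 libraries, Bst2, which tethers budding virus to the cell surface, stood at 172 ± 71.4 (SD), Isg20, an RNA exonuclease, at 163 ± 66.4, and Sp100, a nuclear body protein, at 148 ± 46.8. Ifi35, an interferon-induced regulator of signalling, reached 132 ± 40.0, Rtp4, a receptor transporter that restricts RNA viruses, 93.5 ± 18.5, and Zbp1, a sensor of Z-form nucleic acid, 89.7 ± 23.9. These order the top of the list, but the SDs of Bst2, Isg20, Sp100 and Ifi35 exceed the gaps between them. The median of the 37 means was 14.6 RPKM, with 4 genes at 100 or more and 7 under 5. At the low end stood Mx2, an antiviral GTPase, at 1.82 ± 3.18, Oas2, a synthase of the messenger that activates RNase L, at 2.00 ± 2.82, and Rsad2 (viperin), which makes a chain-terminating nucleotide, at 2.04 ± 2.14.

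**Figure D2:**
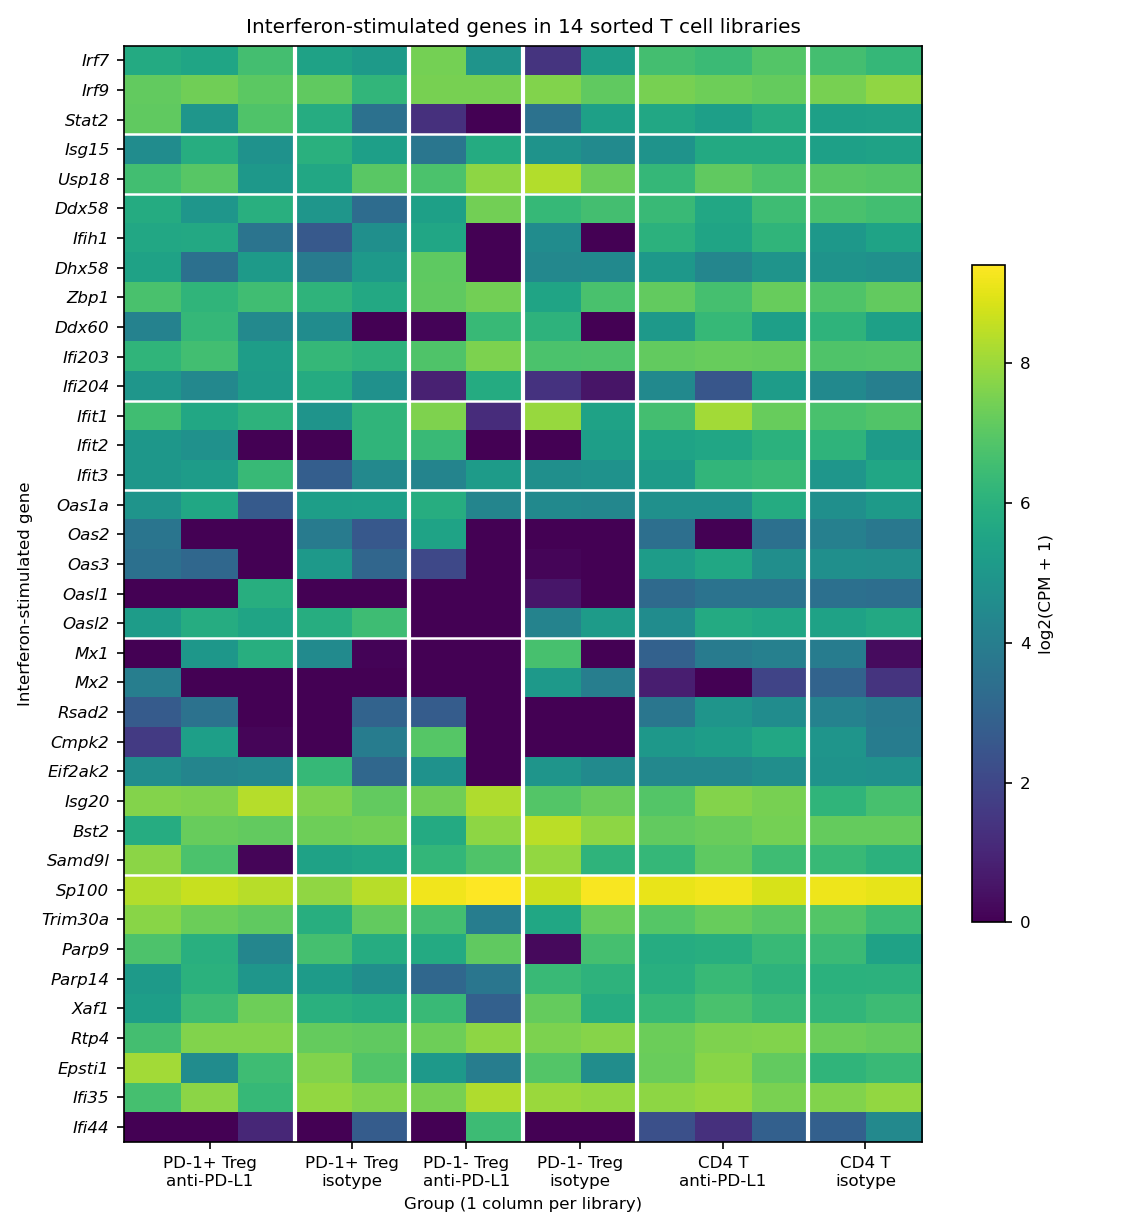
Level of the 37 genes (rows, ordered by role, white lines between roles) in the 14 libraries (columns, white lines between groups) as log2(CPM + 1). Dark cells are genes with no or few reads; they gather in the PD-1- and PD-1+ Treg columns among the Oas, Mx, Rsad2 and Cmpk2 rows, while Sp100, Irf9, Rtp4 and Ifi35 are bright in every column.

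Reads of most members were found in all 3 populations, and almost none of the interferon genes themselves. Of 18 type I interferon genes in the count table, 1 had any read, a single read in all 14 libraries together. Markers of plasmacytoid dendritic cells, known as major interferon producers, summed to 64.6 to 186 CPM. Of these 7 genes 3 to 5 had reads per PD-1+ library, 2 to 4 per PD-1- library and 5 to 7 per CD4 library. Cox6a2 and Cd300c had no read in any PD-1- library, so the sums rest on part of the list. Macrophage and monocyte markers summed to 4511 to 8180.35 CPM per PD-1+ library, 559 to 1083 CPM per PD-1- library and 3019.8 to 7595 CPM per CD4 library, and their part in the members' reads was not tested. Reads were found for 27 of 37 members in every PD-1+ Treg library, 22 in every PD-1- Treg library and 35 in every CD4 library. No member was at 0 in every library of a population. Members at 0 numbered 3 to 6 per PD-1+ library, 5 to 13 per PD-1- library and 0 to 2 per CD4 library. In each library with a member at 0 the share of members without a read was below that of all tested genes, for example 35.1% against 41.7% in treated PD-1- replicate 2.

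**Figure D3:**
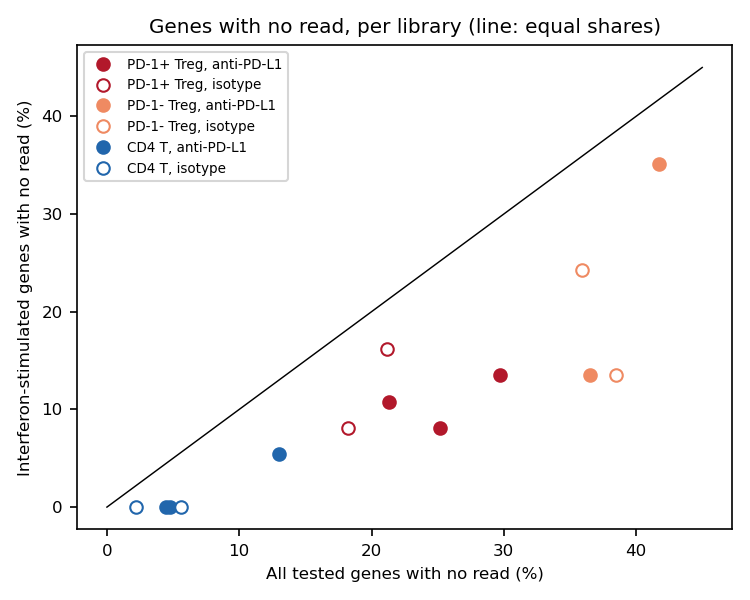
Share of the 37 interferon-stimulated genes without a read (vertical axis, percent) against the same share of all tested genes (horizontal axis, percent), 1 point per library, filled for anti-PD-L1 and open for isotype. Every point lies below the line of equal shares, with PD-1- Tregs at 13.5% to 35.1%, PD-1+ Tregs at 8.11% to 16.2% and CD4 T cells at 0% to 5.41%.

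Anti-PD-L1 was first compared with isotype in PD-1+ Tregs, which carry the receptor whose ligand was blocked. None of the 37 members passed an adjusted p of 0.05 (edgeR quasi-likelihood test, Benjamini-Hochberg over all genes), against 0.0149% of all genes. At an unadjusted p under 0.05 stood 1 member, against 8.06% of all genes, and DESeq2 and limma-voom each called 0. Here and below, shares of all genes past a p-value threshold are from the main edgeR fit. They are no baseline for the counts of other fits, whose shares are not given. The members' median log2 change was 0.46 against 0 for all genes, and 22 of 37 lay above 0 against 48% of all genes. Of the 13434 tested genes 12676 had a read in PD-1+ Tregs. The rest, with a change of 0, count in that median and share, so the bases are unlike. The transcription factors Irf7, Irf9 and Stat2, which carry the signal and its amplification, had positive fitted changes, with Irf9 at 0.46 ± 0.35 (SE; 95% interval -0.29 to 1.21).

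Single members in PD-1+ Tregs spread widely between libraries. Irf7, the master factor of the second wave of interferon production, had 52.8, 45.8 and 95.9 CPM in anti-PD-L1 libraries, against 41.7 and 34.1 CPM in isotype libraries. The treated values lay just above the isotype ones, by less than the spread among the treated (0.77 ± 1.03 on the log2 scale, adjusted p = 1.00). Isg15, a ubiquitin-like modifier, had 22.6, 56.6 and 26.9 CPM under anti-PD-L1, against 61.1 and 38.4 CPM under isotype, and the groups overlapped. Usp18, which removes ISG15 and damps receptor signalling, had 92.9, 123 and 31.5 CPM against 49.2 and 126 CPM, also overlapping. Treated libraries were all above isotype libraries for Irf7, Ddx58, Zbp1 and Ifit3, against 7.69% of all genes, and all below for Oasl2 and Bst2, against 11.5%. Ddx58 encodes RIG-I, a sensor of viral RNA, and changed by 1.32 ± 0.76 (adjusted p = 0.689). Ifit3, which binds foreign RNA with its relatives, had 30.4, 36.1 and 79.97 CPM against 6.03 and 20.6 CPM (1.87 ± 1.06, adjusted p = 0.68). Oasl1, a regulator of Irf7 translation, had reads in treated replicate 3 alone, at 58.7 CPM, against none in either isotype library. That library is one of those with Y-linked reads, and without it Oasl1 had no read in PD-1+ Tregs. Oas3, an OAS enzyme, had 10.1, 7.84 and 0 CPM against 33.0 and 7.66 CPM (-1.76 ± 2.07, adjusted p = 1.00). Actb, a cytoskeletal gene, took 6.47%, 5.88% and 7.27% of counts in treated and 4.26% and 3.60% in isotype libraries, and B cell markers summed to 22.9 to 82.2 CPM in treated and 219 to 399 CPM in isotype libraries; their part in these values was not tested.

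In PD-1- Tregs 1 of 37 members passed the threshold, against 2.66% of all genes, and 8 stood below an unadjusted p of 0.05, against 20.1%, while DESeq2 called 7 and limma-voom 2. The member was Oasl2, an OAS-like protein that binds double-stranded RNA and in the mouse inhibits the DNA sensor cGAS. It had no read in either anti-PD-L1 library, against 17.4 and 34.6 CPM in isotype libraries. Set against a floor of 3 counts per library, Oasl2 reads were 110-fold lower in treated libraries (edgeR adjusted p = 0.00567). That floor covers counting error only, and in treated replicates 1 and 2 there was no read for 36.5% and 41.7% of tested genes. Without the 3 libraries with Y-linked reads the treated arm held 1 library, also without an Oasl2 read, so that fit holds no spread within it. Elsewhere Oasl2 had reads in every PD-1+ and CD4 library. The call was lost when only these 4 libraries were fitted (adjusted p = 0.705) and with limma-voom quality weights (adjusted p = 0.481). Leaving out any of the 4 libraries left an arm of 1 library, so those fits cannot show whether the call holds.

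Some of the other members of PD-1- Tregs differed between the arms without overlap, and others had reads in 1 library alone. Stat2, a subunit of the interferon-activated complex, had 1.48 and 0 CPM in treated, against 10.7 and 39.7 CPM in isotype libraries (-5.07 ± 1.74, adjusted p = 0.142). Parp14, an ADP-ribosyltransferase of the macrodomain family, had 7.76 and 12.0 CPM in treated, against 82.6 and 67.1 CPM in isotype libraries (-2.92 ± 0.87, adjusted p = 0.0971), and these groups did not overlap. Of the members with the largest changes, Cmpk2, a mitochondrial nucleotide kinase, had 122 and 0 CPM in treated and no read in isotype libraries. Ifi44 had 86.1 CPM in the treated library with Y-linked reads and no read in the other 3 PD-1- libraries. Mx1 had 101 CPM in 1 isotype library and no read in the other 3 PD-1- libraries. These 3 differences rest on 1 library each, and their adjusted p-values were 0.188, 0.208 and 0.21. By CPM treated libraries were above isotype for Zbp1, Ifi203 and Isg20, against 12.5% of all genes, and below for Stat2, Oasl2, Mx2, Bst2 and Parp14, against 14%. In the authors' RPKM Zbp1 overlapped, at 81.7 in treated replicate 1 against 93.3 in isotype replicate 2. So did Bst2, at 248.8 in treated replicate 2 against 227.5 in isotype replicate 2. The members' median change was 0.25 against 0 for all genes, and 21 of 37 lay above 0, against 41.6%. Only 11254 of the 13434 tested genes had a read in PD-1- Tregs. The rest, with a change of 0, lower that share and draw the all-gene median to 0, while every member had reads. Irf7 had 174 and 27.9 CPM in treated, against 1.68 and 37.3 CPM in isotype libraries, so the treated and isotype ranges overlapped. Actb took 3.16% and 2.74% of counts in treated and 6.53% and 8.71% in isotype libraries, opposite in direction to PD-1+ Tregs. Dendritic cell markers summed to 8916 to 10984.5 CPM in treated and 14458 to 15529 CPM in isotype libraries. Macrophage and monocyte markers overlapped, at 841 to 939 CPM in treated and 559 to 1083 CPM in isotype libraries. Of those 15 genes 6 changed upward and 7 downward, and Mrc1 alone was called, as lower. The part of these in the Oasl2 result was not tested.

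In CD4 T cells 0 of 37 members passed in edgeR, against 0.00744% of all genes, with 1 below an unadjusted p of 0.05, against 1.15%, and DESeq2 and limma-voom each called 0. That member was Isg20, with 116, 200.1 and 176 CPM under anti-PD-L1, against 70.3 and 101 CPM under isotype. All treated libraries lay above both isotype libraries (0.93 ± 0.41, 95% interval 0.05 to 1.82, adjusted p = 1.00). Isg15 had 27.5, 51.9 and 52.1 CPM in treated, against 39.6 and 41.4 CPM in isotype libraries, a change of 0.11 ± 0.99 with an interval of -2.03 to 2.26, which leaves room for several-fold shifts either way. Bst2 stood at 154 ± 15.5 CPM in treated and 144 ± 0.37 CPM in isotype libraries, and Sp100 at 527 ± 66.1 and 554 ± 31.2 CPM, both with intervals that include 0. The median of members was 0.11 against -0.01 for all genes, and 25 of 37 lay above 0 against 48.9%. By CPM treated libraries were above isotype for Ifih1, Ifi203, Cmpk2, Isg20, Trim30a, Rtp4 and Epsti1, against 12.5% of all genes, and below for Irf9, Ddx58, Oas2 and Eif2ak2, against 15.5%. In the authors' RPKM Irf9 overlapped, at 67.4 in treated replicate 1 against 65.9 in isotype replicate 1. Epsti1 had 151, 214 and 142 CPM in treated, against 69.6 and 81.5 CPM in isotype libraries (1.16 ± 0.88, adjusted p = 1.00), and Irf9 had 176, 159.9 and 146 CPM against 177 and 228 CPM. B cell markers, at 53.6 to 83.0 CPM in treated and 208 to 232 CPM in isotype libraries, did not overlap between the arms here either. Nor did T cell markers, at 7590 to 7764 CPM in treated and 6281 to 6514 CPM in isotype libraries, or tumour and stroma markers, at 292 to 784 CPM in treated and 1114 to 1456 CPM in isotype libraries, and the part of these was not tested.

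**Figure D4:**
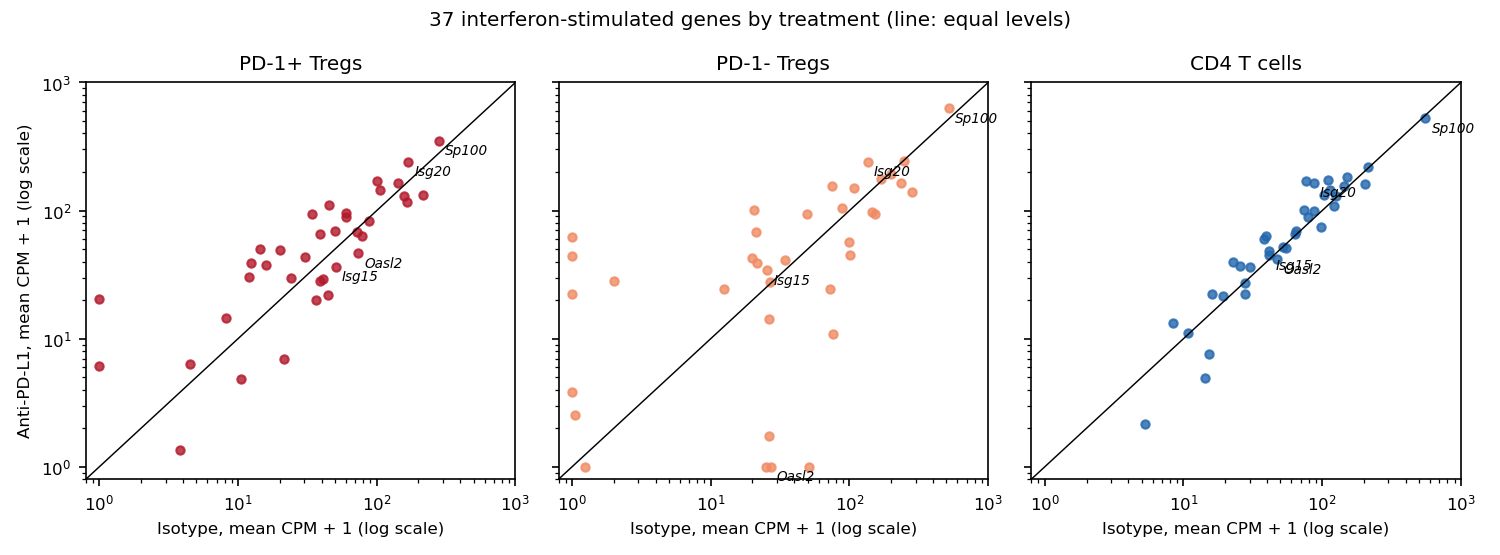
Mean CPM + 1 of each of the 37 genes under anti-PD-L1 (vertical, log scale) against isotype (horizontal, log scale), 1 point per gene, in each population; the line marks equal levels. Points hug the line most closely for CD4 T cells. Several points of the PD-1- Treg panel lie at 1 on an axis because an arm had no read, Oasl2 among them.

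Averaged over the 3 populations with equal weight, 1 of 37 members passed, against 1.23% of all genes, with 3 below an unadjusted p of 0.05, against 14.8%, and 26 above 0, against 50.2%. The member was again Oasl2 (adjusted p = 0.0135), which had no read in treated PD-1- Tregs. DESeq2 called 6, and without the 3 libraries with Y-linked reads Oasl2 kept its direction, with 1 treated PD-1- library left. The call was lost on log2(RPKM + 1) (adjusted p = 0.0605), with quality weights (adjusted p = 0.24), and without isotype CD4 replicate 1 (adjusted p = 0.073), isotype CD4 replicate 2 (adjusted p = 0.0912) or isotype PD-1+ replicate 2 (adjusted p = 0.053), while 4 members passed without treated PD-1- replicate 1 and 3 without isotype PD-1- replicate 2. Isg20 came next. Its mean was 211 ± 73.8 CPM in 8 anti-PD-L1 libraries and 129 ± 42.4 CPM in 6 isotype libraries, a change of 0.76 ± 0.24 with an interval of 0.24 to 1.28 and an adjusted p of 0.168. Irf7 was at 86.5 ± 46.1 CPM in treated and 48.0 ± 33.7 CPM in isotype libraries (1.11 ± 0.61, adjusted p = 0.454), Zbp1 at 120.1 ± 33.9 and 85.9 ± 37.7 CPM (0.56 ± 0.27, adjusted p = 0.358), and Usp18 at 112 ± 55.1 and 147 ± 89.9 CPM (-0.26 ± 0.36, adjusted p = 1.00). None of the 7 nucleic acid sensors or the 3 Ifit genes passed the threshold.

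Whether the antibody acted differently by population was tested directly. Oasl2 was the 1 member whose treatment effect differed in edgeR between PD-1+ and PD-1- Tregs (adjusted p = 0.018; 1.46% of all genes passed) and between PD-1- Tregs and CD4 T cells (adjusted p = 0.0186; 0.975% of all genes passed). At an unadjusted p under 0.05 stood 9 members, against 16.4% of all genes, between the Treg types, and 6, against 14.3%, between PD-1- Tregs and CD4 T cells. PD-1+ Treg libraries had 35.4, 56.1 and 44.2 CPM of Oasl2 under anti-PD-L1, against 57.0 and 88.2 CPM under isotype. CD4 libraries had 22.7, 53.2 and 46.1 CPM under anti-PD-L1, against 42.1 and 50.3 CPM under isotype. Between PD-1+ Tregs and CD4 T cells no member differed in edgeR, against 0% of all genes, with 0 below an unadjusted p of 0.05, against 3.5%, and 0 in DESeq2 and limma-voom. DESeq2 called 7 members for the first difference and 6 for the second. Without the 3 libraries with Y-linked reads both Oasl2 differences kept their direction, with 1 treated PD-1- library left. On log2(RPKM + 1), with only the libraries compared and with quality weights, both calls were lost, at adjusted p-values of 0.168, 0.267 and 0.506 for the first and 0.134, 0.0726 and 0.56 for the second. The difference between the Treg types was also lost without either isotype CD4 library or either isotype PD-1+ library (adjusted p = 0.0611 to 0.121), and that between PD-1- Tregs and CD4 T cells without either isotype CD4 library or treated CD4 replicate 2 or 3 (adjusted p = 0.0612 to 0.232). Leaving out treated PD-1- replicate 1 raised both counts to 5, and leaving out isotype PD-1- replicate 2 raised them to 2 between the Treg types and 3 between PD-1- Tregs and CD4 T cells.

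**Figure D5:**
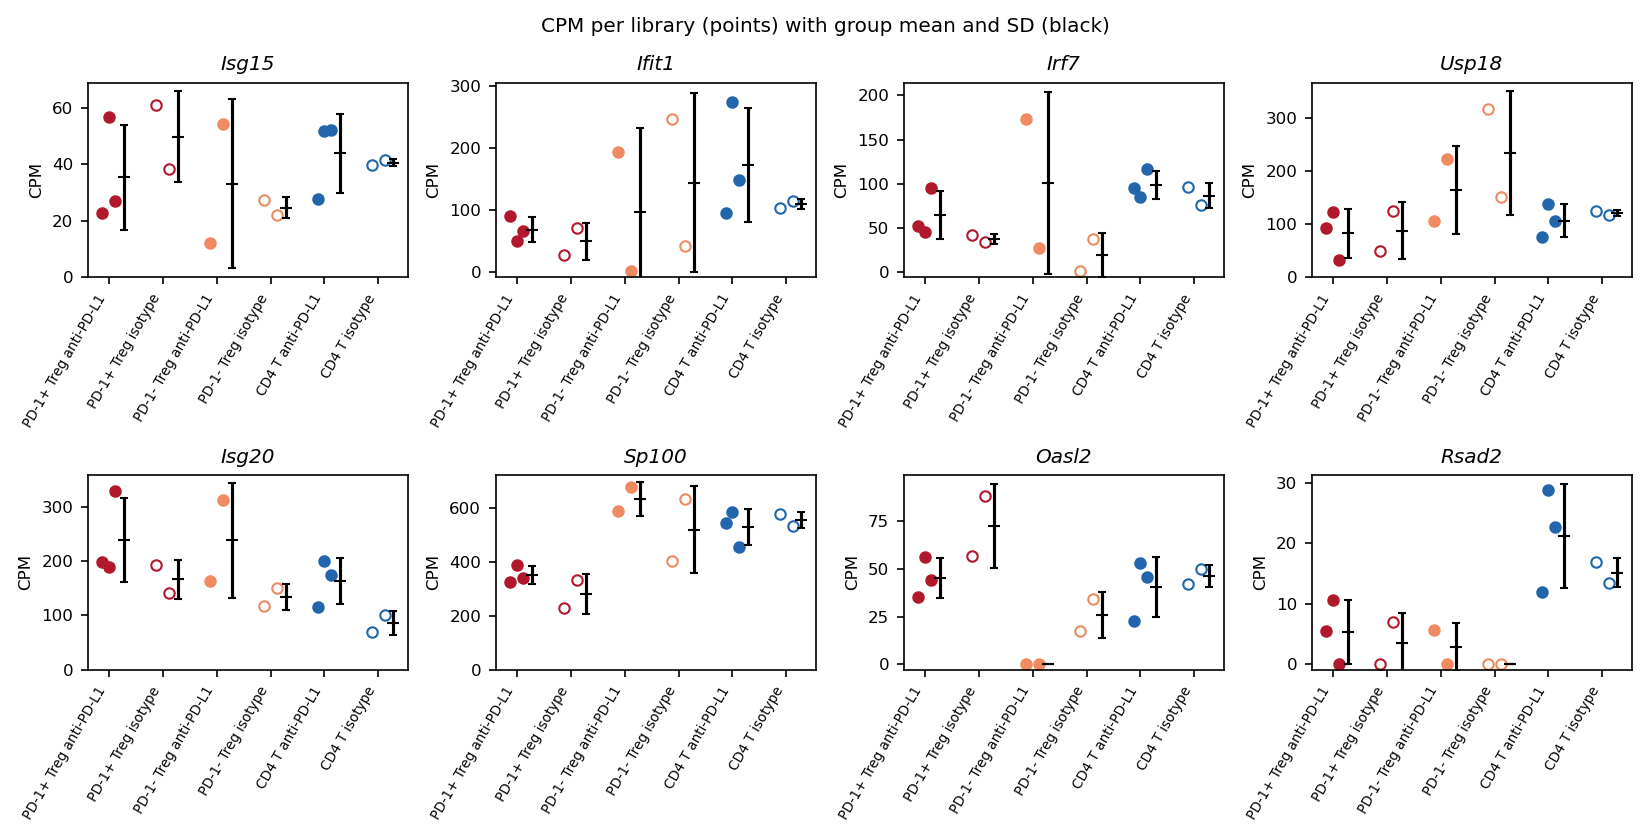
CPM of 8 genes in each library (points, filled for anti-PD-L1, open for isotype) with the group mean and SD beside them in black; SD bars that would pass below 0 are cut there, and each panel has its own linear axis. Oasl2 lies at 0 in both anti-PD-L1 PD-1- Treg libraries, Sp100 lies lower in PD-1+ Tregs than in the other populations, and Rsad2 lies higher in CD4 T cells than in PD-1+ Tregs.

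The Treg types differed in 2 of the 37 members in edgeR, against 4.28% of all genes, while DESeq2 called 12 and the fit of only these libraries and limma-voom with quality weights called 0. Sp100 had 323, 388 and 340.1 CPM in treated PD-1+ Tregs and 228 and 332 CPM in isotype PD-1+ Tregs, against 586 and 677 CPM in treated PD-1- Tregs and 404 and 632 CPM in isotype PD-1- Tregs. By CPM every PD-1+ library lay below every PD-1- library, under both antibodies. In the authors' RPKM they overlapped, at 120.5 in treated PD-1+ replicate 2 against 118.2 in isotype PD-1- replicate 1. The mean was 322 ± 58.3 CPM for PD-1+ and 575 ± 120.1 CPM for PD-1- Tregs, so PD-1+ Tregs fell by 0.87 on the log2 scale (SE 0.18, adjusted p = 0.0176). Without the 3 libraries with Y-linked reads the log2 difference was -0.79 (adjusted p = 0.0806), and without isotype PD-1+ replicate 1 it was -0.72 (adjusted p = 0.0857). The Sp100 call was also lost on log2(RPKM + 1) (adjusted p = 0.078) and log2(RPKM + 0.1) (adjusted p = 0.187). The same held with only the libraries compared (adjusted p = 0.177), with quality weights (adjusted p = 0.143) and with libraries blocked by bracketed number (adjusted p = 0.0787). Oasl2, at 56.2 ± 19.98 CPM in PD-1+ and 13.0 ± 16.6 CPM in PD-1- Tregs, was higher in PD-1+ Tregs (adjusted p = 0.00428), and all 5 PD-1+ libraries, at 35.4 to 88.2 CPM, lay above all 4 PD-1- libraries, at 0 to 34.6 CPM. Without the 3 libraries Oasl2 kept its direction, with 1 treated PD-1- library left. Its call was lost with only the libraries compared (adjusted p = 0.119) and with quality weights (adjusted p = 0.154). It was also lost with libraries blocked by bracketed number (adjusted p = 0.0558). Without treated PD-1- replicate 1 the count of members called was 7. Macrophage and monocyte markers were 4511 to 8180.35 CPM in PD-1+ and 559 to 1083 CPM in PD-1- Tregs, with 12 of 15 called higher in PD-1+ Tregs. Dendritic cell markers were 19880 to 49730 CPM in PD-1+ and 8916 to 15529 CPM in PD-1- Tregs, with 7 of 12 called higher. The part of both in these 2 results was not tested.

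Below the threshold the Treg types were set apart in no single direction. Usp18 stood at 84.5 ± 42.8 CPM in PD-1+ and 199 ± 92.4 CPM in PD-1- Tregs (-1.20 ± 0.45, adjusted p = 0.141), Ddx58 at 36.6 ± 20.8 and 95.6 ± 54.5 CPM (-1.65 ± 0.55, adjusted p = 0.106), and Ifi203, a member of the DNA-binding PYHIN family, at 68.6 ± 20.2 and 127 ± 38.9 CPM (-0.86 ± 0.32, adjusted p = 0.134). Stat2 stood the other way, at 68.7 ± 53.5 CPM in PD-1+ and 13.0 ± 18.5 CPM in PD-1- Tregs (3.67 ± 1.13, adjusted p = 0.0865), as did Epsti1, at 139 ± 96.6 and 47.3 ± 48.1 CPM (1.79 ± 0.66, adjusted p = 0.136). Oas3 stood at 11.7 ± 12.5 and 0.80 ± 1.54 CPM (5.22 ± 1.95, adjusted p = 0.139). By fitted change all 5 OAS family members were higher and all 3 Ifit genes lower in PD-1+ Tregs, with Oasl2 alone called. Mean CPM went the other way for Oas2, at 6.11 ± 6.49 and 10.8 ± 21.5 CPM, with reads in 1 of 4 PD-1- libraries. It also did for Ifit3, at 34.6 ± 27.8 and 26.2 ± 7.08 CPM, while Ifit1 was at 60.8 ± 23.4 and 121 ± 118 CPM. The median change of the members was 0.16, against 0.42 for all genes, and 21 of 37 lay above 0, against 62.2%. At an unadjusted p under 0.05 stood 8 members, against 22.3%. By CPM all PD-1+ libraries lay above all PD-1- libraries for Oasl2, against 3.24% of all genes, and below for Ifi203 and Sp100, against 0.782%. In the authors' RPKM both Sp100 and Ifi203 overlapped, with Ifi203 at 20.3 in treated PD-1+ replicate 2 against 18.2 in isotype PD-1- replicate 2. Summed over the 37 members, PD-1+ libraries held 2233 to 2752 CPM and PD-1- libraries 2829 to 3323 CPM.

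Each Treg type was then set against CD4 T cells. In PD-1+ Tregs 0 of 37 members passed in edgeR, against 0.35% of all genes, with 6 below an unadjusted p of 0.05, against 12.4%, while DESeq2 called 2 and limma-voom 1. The members' median change was -0.55, against -0.23 for all genes, and 10 of 37 lay above 0, against 39.3%. Sp100 averaged 322 ± 58.3 CPM over PD-1+ Treg and 538 ± 51.5 CPM over CD4 libraries, with every PD-1+ library below every CD4 library (-0.79 ± 0.17, interval -1.16 to -0.42, adjusted p = 0.0852). DESeq2, limma-voom and the fit of these 10 libraries alone called Sp100. Zbp1 was at 76.8 ± 20.9 and 128 ± 22.2 CPM (-0.81 ± 0.32, adjusted p = 0.344), Ifi203 at 68.6 ± 20.2 and 132 ± 17.6 CPM (-0.89 ± 0.31, adjusted p = 0.32), and Isg20 the other way at 211 ± 70.7 and 133 ± 53.6 CPM (0.75 ± 0.28, adjusted p = 0.337). PD-1+ libraries lay below all CD4 libraries for Ifi203, Ifit1, Rsad2 and Sp100, against 4.72% of all genes, and above for none, against 1.71%.

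For PD-1- Tregs set against CD4 T cells 1 of 37 members passed, against 3.6% of all genes, and 7 stood below an unadjusted p of 0.05, against 28.6%, while DESeq2 called 8 and limma-voom 7. Macrophage and monocyte markers summed to 559 to 1083 CPM in PD-1- Tregs and 3019.8 to 7595 CPM in CD4 T cells, with 10 of 15 called lower, and 6 of 12 dendritic cell markers were called lower. Their part in these results was not tested. Oasl2 was at 13.0 ± 16.6 CPM in PD-1- Tregs and 42.9 ± 12.0 CPM in CD4 T cells (adjusted p = 0.00625), with no read in the 2 treated PD-1- libraries. Without the 3 libraries with Y-linked reads Oasl2 kept its direction, with 1 treated PD-1- library left. Its call was lost with quality weights (adjusted p = 0.0879) and with libraries blocked by bracketed number (adjusted p = 0.0868). The count of members called was 6 without treated PD-1- replicate 1, 3 without isotype PD-1- replicate 2 and 2 without treated PD-1+ replicate 3. Oas3 was at 0.80 ± 1.54 and 31.3 ± 10.4 CPM (-6.64 ± 2.08, adjusted p = 0.0837), Rsad2 at 1.42 ± 2.85 and 18.8 ± 7.00 CPM (-6.73 ± 2.59, adjusted p = 0.127), and Oasl1 at 0.116 ± 0.233 and 9.95 ± 1.03 CPM. All PD-1- libraries lay below all CD4 libraries for these last 3, Oas3, Oasl1 and Rsad2, against 13% of all genes, and above for none, against 1.01%. The median change was -0.56, against -0.94 for all genes, and 10 of 37 lay above 0, against 27.1%. Both Treg comparisons share the CD4 libraries, and 35.9% to 41.7% of all tested genes had no read per PD-1- library, against 2.2% to 13.0% per CD4 library. Of members with few reads, Oasl1 was found in 1 of 5 PD-1+, 1 of 4 PD-1- and 5 of 5 CD4 libraries, Rsad2 in 3, 1 and 5, Mx1 and Cmpk2 in 4, 1 and 5, Ifi44 in 2, 1 and 5, Oas2 in 3, 1 and 4, and Mx2 in 1, 2 and 4. Mean Mx1 was nevertheless 22.1 ± 24.1 CPM for PD-1+ Tregs, 25.2 ± 50.4 CPM for PD-1- Tregs and 10.2 ± 6.70 CPM for CD4 T cells. Sp100 and Irf9 had no such gap in detection, with reads in all 14 libraries. Irf9 stood at 129 ± 34.8 CPM for PD-1+ Tregs, 172 ± 24.2 CPM for PD-1- Tregs and 177 ± 31.3 CPM for CD4 T cells. By mean CPM, the highest population was PD-1+ Tregs for 8 members, PD-1- Tregs for 13 and CD4 T cells for 16.

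Members not yet described were called in no edgeR comparison and had wider ranges among Treg than among CD4 libraries. Ifih1, which encodes the RNA sensor MDA5, ran from 5.18 to 50.01 CPM (median 24.9) over PD-1+, 0 to 46.8 CPM (median 11.5) over PD-1- and 31.7 to 69.5 CPM (median 43.5) over CD4 libraries. Dhx58, which encodes LGP2, a partner of RIG-I and MDA5, ran from 10.1 to 41.7 CPM over PD-1+, 0 to 133 CPM over PD-1- and 18.9 to 31.6 CPM over CD4 libraries. Their ranges overlapped in all 3 populations. Eif2ak2, the kinase PKR that halts translation on double-stranded RNA, ran from 7.81 to 78.7 CPM over PD-1+, 0 to 28.8 CPM over PD-1- and 19.9 to 27.3 CPM over CD4 libraries. Ifit2, which binds AU-rich RNA, was at 0 in 2 PD-1+ and 2 PD-1- libraries and ran from 35.0 to 67.6 CPM over CD4 libraries. Xaf1, an antagonist of the apoptosis inhibitor XIAP, ran from 38.0 to 159 CPM over PD-1+, 6.48 to 143 CPM over PD-1- and 71.8 to 102 CPM over CD4 libraries. Samd9l, a restriction factor of poxviruses, ran from 0.0974 to 219 CPM, 68.6 to 235 CPM and 65.7 to 134 CPM in the same order, and Parp9, the partner of the ubiquitin ligase DTX3L, from 18.7 to 109.6 CPM, 0.186 to 135 CPM and 41.8 to 83.2 CPM. In both, 1 library held almost no read while the others of its population were well above it.

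The spread of members between libraries was close to that of other genes at such levels. Among genes with a mean of at least 10 CPM, the median coefficient of variation of members was 51.4% against 56.5% for all genes across PD-1+ Treg libraries, 80.4% against 82.1% across PD-1- Treg libraries and 24.5% against 24.2% across CD4 libraries. The steadiest members were Sp100 among PD-1+ (18.1%), Rtp4 among PD-1- (13.6%) and Bst2 among CD4 libraries (8.27%). Once group means were removed, pairs of members had a mean Pearson r of -0.004 over 14 libraries, against 0.008 for pairs of all tested genes, and 0.085 over the 5 CD4 libraries, against 0.015. These are descriptions over libraries that share depth and detection, and values this small in sparse counts are no finding.

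Other genes of the pathway were counted from lists drawn up by name, also with earlier results of these data known. Of 14 receptor and signalling genes, 2 rose in PD-1- Tregs under anti-PD-L1, where 2.66% of all genes passed, and 0 passed in PD-1+ Tregs or CD4 T cells in edgeR, the one tool run on these lists, with 0 below an unadjusted p of 0.05 in either. Socs1, an inhibitor of Jak kinases that cytokines induce, had 438 and 402 CPM in treated, against 107 and 43.5 CPM in isotype PD-1- Tregs (2.48 ± 0.50, adjusted p = 0.0207). Irf5, a factor of inflammatory gene induction, had 49.8 and 80.3 CPM against 0.279 and 0 CPM (adjusted p = 0.00701). The receptor chain Ifnar1 had 276 and 420.1 CPM in treated, against 747 and 603 CPM in isotype PD-1- Tregs (-0.96 ± 0.26, adjusted p = 0.0737), and over both treatments it was higher in PD-1- Tregs than in CD4 T cells, at 511 ± 206 and 286 ± 38.5 CPM (0.79 ± 0.17, adjusted p = 0.0282). Jak1 fell in PD-1+ Tregs relative to CD4 T cells, at 310.1 ± 78.4 and 594 ± 64.9 CPM (-1.02 ± 0.17, adjusted p = 0.0263). None of 16 measured sensing genes, such as Tlr7, Mavs and Aim2, passed in any comparison in edgeR, with 0 to 5 of them below an unadjusted p of 0.05 per comparison, against 1.15% to 28.6% of all genes.

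Of 46 further interferon-inducible genes tested, 2 rose in PD-1- Tregs under anti-PD-L1, Ly6a and Shisa5, where 2.66% of all genes passed, and 1 rose over the 3 populations, Ly6a, where 1.23% passed. Ly6a, the surface antigen Sca-1 of activated T cells, had 392, 394 and 369 CPM in treated and 91.4 and 156 CPM in isotype PD-1+ Tregs. It had 437 and 516 CPM in treated and 145 and 149 CPM in isotype PD-1- Tregs, and 376, 393 and 572 CPM in treated and 191 and 183 CPM in isotype CD4 T cells. All 8 treated libraries were above all 6 isotype libraries (1.53 ± 0.16, adjusted p = 0.00115 over the 3 populations), a pattern that 0.149% of all genes had in this direction and none of the 37 members. Between the Treg types 5 passed, against 4.28% of all genes: Ifitm2, Ms4a4c and Parp12 were higher and Ms4a4b and Uba7 lower in PD-1+ Tregs. Ms4a4b, a membrane protein of T cells, averaged 655 ± 58.1 CPM over PD-1+ and 1659 ± 201 CPM over PD-1- Treg libraries (-1.33 ± 0.12, adjusted p = 0.000301). Slfn1 and Slfn2, which restrain T cell proliferation, were lower than in CD4 T cells in both Treg types; Slfn2 averaged 214 ± 75.4 CPM for PD-1+ and 268 ± 75.3 CPM for PD-1- Tregs, against 561 ± 47.9 CPM for CD4 T cells.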

How the data were processed

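Per the submitters' processing notes, the authors used HISAT2 2.0.4, HOMER 3.12, SAMtools and DESeq2 with build mm10. The sources used here name no annotation and no strand setting. The deposited values were raw counts per gene and RPKM, and RPKM served for levels between genes and for 2 alternatives. The members and all gene lists were chosen with earlier results of these data known. Genes were kept by edgeR's filterByExpr (minimum count 10), leaving 13434, and counts were scaled by TMM. One edgeR 4.0.16 quasi-likelihood fit (R 4.3.3) held the 6 group means over all 14 libraries, with Benjamini-Hochberg adjustment over all genes and a threshold of 0.05; it gave 10 comparisons. The script was tested on simulated data. CPM are TMM-scaled, and 3 counts per library (0.198 to 0.292 CPM) served as the floor for genes without reads; intervals and floors cover counting error or the spread between libraries only. Named in full were, per comparison, members past the threshold and the 3 largest changes among members with at least 10 CPM in 1 arm, the 6 highest by RPKM, and Irf7, Irf9, Stat2 and Usp18. Other named members were chosen after their values were seen. One gene of the signalling list is not reported here. Alternatives were DESeq2 1.42.0, limma 3.58.1 voom with and without quality weights, other scalings, no filter, log2(RPKM + 1), log2(RPKM + 0.1), only the libraries compared, replicate blocks, and leaving out libraries. A group of 2 libraries that lost 1 kept a single library, and its spread then came from the other groups. Counts of members called in such fits are descriptive.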

Additional observations from a re-analysis of the deposited data

Results flagged for a closer look

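The treatment effect on Oasl2 differed between populations in direct tests of the difference (edgeR, Benjamini-Hochberg over all genes), with an adjusted p of 0.018 for PD-1+ minus PD-1- Tregs and 0.0186 for PD-1- Tregs minus CD4 T cells. Both rest on the absence of Oasl2 reads in the 2 anti-PD-L1 PD-1- libraries. Y-linked reads, which belong to no comparison here, were found in PD-1+ Treg anti-PD-L1 replicate 3 at 260 CPM, PD-1- Treg anti-PD-L1 replicate 2 at 267 CPM and CD4 anti-PD-L1 replicate 3 at 204 CPM, against at most 0.0872 CPM in the other 11 libraries, although the labels give female mice. Without these 3 libraries both Oasl2 differences kept their direction, but 1 treated PD-1- library was left, also without an Oasl2 read.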

How the results depend on the processing

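Of the members called, DESeq2 gave the most: 7 under anti-PD-L1 in PD-1- Tregs, 6 over the mean of populations, 12 between the Treg types, 2 for PD-1+ Tregs against CD4 T cells, 8 for PD-1- Tregs against CD4 T cells, 7 for the treatment effect in PD-1+ minus PD-1- Tregs and 6 for that in PD-1- Tregs minus CD4 T cells. With limma-voom the counts were 2 in PD-1- Tregs under treatment, 1 for PD-1+ Tregs against CD4 T cells and 7 for PD-1- Tregs against CD4 T cells; with quality weights they were 2 for PD-1+ Tregs against CD4 T cells and 0 in the other comparisons that had calls. On log2(RPKM + 1) they were 2, 0 and 1 for treatment in PD-1- Tregs, the mean and the Treg types, 4 for PD-1- Tregs against CD4 T cells and 0 for both treatment differences; on log2(RPKM + 0.1) they were 2 and 5 in PD-1- Tregs under treatment and against CD4 T cells. Fitting only the libraries compared gave 0 for treatment in PD-1- Tregs, the Treg types and both treatment differences, 1 for PD-1+ Tregs and 2 for PD-1- Tregs against CD4 T cells. The fit without the 3 libraries with Y-linked reads held 1 treated PD-1- library. Shares of all genes called in these alternative fits are not given here. The counts above therefore do not show whether members were called more often than other genes. The longer motif was in 7 members.

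Leaving out 1 library gave 0 to 0 calls for treatment in PD-1+ Tregs, 0 to 0 for treatment in CD4 T cells, 0 to 0 for PD-1+ Tregs against CD4 T cells, 1 to 6 for treatment in PD-1- Tregs, 0 to 4 for the mean, 1 to 7 between the Treg types, 1 to 6 for PD-1- Tregs against CD4 T cells, and 0 to 5, 0 to 0 and 0 to 5 for the treatment differences PD-1+ minus PD-1- Tregs, PD-1+ Tregs minus CD4 T cells and PD-1- Tregs minus CD4 T cells.

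Neither replicate number met the rule for pairing, a correlation of deviations over 0.1 in every pair: the median was 0.004 over 31 pairs by the title number, and by the bracketed number within treatment it was 0.0164 (0.00203 to 0.0354, 13 pairs), against -0.00844 over 20 pairs of other bracketed numbers. In a group of 2 libraries the deviations are equal and opposite, so same-number and other-number pairs are not independent. The median of other numbers is therefore no baseline. The 3 libraries with Y-linked reads share the bracketed number 3, and whether that number marks a shared source was not tested. The main fit treated all 14 libraries as independent, so its p-values take no account of a shared source. The replicate block by the title number gave 0 calls for the mean and for both treatment differences that had a call; the replicate block by the bracketed number, which for the treatment differences was chosen after seeing the data, gave 0 for those 2, for the Treg types (adjusted p = 0.0558 for Oasl2 and 0.0787 for Sp100) and for PD-1- Tregs against CD4 T cells (0.0868 for Oasl2).

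Each named change was counted once per alternative setting. Of these results, 1556 kept direction and side, 47 gained and 38 lost the threshold, and 9 changed sign. The 1556 include changes that passed the threshold neither in the main fit nor in the alternative. All 38 losses were of Oasl2 or Sp100 calls, the only named changes that passed in the main fit. The sign changes were in CD4 T cells for Isg15 (-0.072 with quality weights, -0.040 without the 3 libraries, -0.039 to 0.34 leaving out 1 library), Bst2 (-0.044 with the title block) and Sp100 (0.011 without the 3 libraries, -0.15 to 0.012 leaving out 1 library), for Mx1 over the mean (-3.74 to 0.70 leaving out 1 library), and for Oasl1 in PD-1+ Tregs minus CD4 T cells (-0.057 to 11.47 leaving out 1 library). The cause was not tested. Settings that left both arms without reads gave no value.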
